A study of Caenorhabditis elegans with 2 samples.

Results

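The mir-51 family of Caenorhabditis elegans comprises 7 of the 261 microRNA genes annotated on the 6 nuclear chromosomes, and 254 microRNA genes lie outside it. The members are cel-mir-51, cel-mir-52, cel-mir-53, cel-mir-54, cel-mir-55, cel-mir-55b and cel-mir-56, taken by name from the annotation and written here without the species prefix. The family was selected on its measured values, because regions of TRA-4 signal at mir-52 and mir-51 were among the strongest of the series. Its signals, ranks and counts are therefore given as a description, with no test. The data come from chromatin immunoprecipitation followed by sequencing (ChIP-seq) in strain OP640, with genotype unc-119(tm4063) III; wgIs640. This transgenic line stably expresses TRA-4 fused at its C-terminus to GFP and FLAG, and an antibody against GFP was used. The material was whole early embryos of pooled males and females obtained by bleaching, in 2 biological replicates of 1 group. There was no other condition, and the embryos came from 1 strain at 1 stage. Chromatin was sheared by sonication, and the labels name no promoter for the transgene.

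A microRNA is cut from a hairpin transcript and guides Argonaute proteins to messenger RNAs through its seed, the bases near its 5′ end that pair with the target. The mir-51 family is related by seed to the miR-99 and miR-100 family of other animals. Loss of the whole family kills C. elegans embryos and leaves the pharynx unattached, and the cadherin gene cdh-3 is a known target. TRA-4, the protein precipitated here, belongs to the PLZF-like zinc finger factors and takes part in sex determination in this worm.

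The family fell into 4 loci. On chromosome IV, mir-51 (11026013 to 11026112, minus strand) and mir-53 (11027593 to 11027691, minus strand) had starts 1579 bp apart. The mir-52 gene (14034008 to 14034107, plus strand) lay 3007896 bp from the start of mir-51 on the same chromosome. On chromosome X, mir-54 (13144996 to 13145094), mir-55 (13144827 to 13144924) and mir-56 (13144691 to 13144787) lay on the minus strand within 404 bp. The mir-55b gene (13144830 to 13144919, plus strand) was 90 bp long and overlapped mir-55 over all 90 bp on the opposite strand. All coordinates are 1-based in ce11, the assembly that the reference annotation calls WBcel235.

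The mature microRNAs of the 7 genes are shown because they define the family. They were read from the RefSeq genome sequence of WBcel235 at the Ensembl positions of each mature product, 5′ to 3′, and capitals mark the seed, bases 2 to 8.
mir-51, 5′ arm: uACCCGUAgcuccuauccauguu
mir-52, 5′ arm: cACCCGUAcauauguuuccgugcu
mir-53, 5′ arm: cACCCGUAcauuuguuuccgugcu
mir-54, 3′ arm: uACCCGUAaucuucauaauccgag
mir-55, 3′ arm: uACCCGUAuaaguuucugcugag
mir-56, 3′ arm: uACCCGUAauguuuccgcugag
mir-55b, 3′ arm: uAACCGAUagguuucugccgag

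The first 6 sequences carried the same seed, and mir-55b carried another. Of 458 mature microRNAs annotated under 257 distinct gene names, 6 had the family seed, and all 6 belonged to the family. The seed lay on the 5′ arm of the hairpin at the chromosome IV genes and on the 3′ arm at the chromosome X genes. The mature mir-52 and mir-53 were identical at 23 of 24 positions and differed by A12U, counted from 1 at the 5′ end with the base of mir-52 first. Outside the seed, the other pairs differed more, with 8 to 14 differing positions when aligned from the 5′ end without gaps.

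The mir-52 and mir-53 hairpins were also the most alike, identical in 79.0% of aligned columns in global alignments. The order of the other pairs differed from that of the mature products. The mir-54 and mir-56 pair, next most alike there with 8 differing positions, stood at 51.3%. This was below mir-51 and mir-53, at 57.0% with 13 differing positions. Among the 15 pairs that do not involve mir-55b the median was 50.9%, with a range of 45.1% to 79.0%. The mir-55b hairpin matched the reverse complement of mir-55 in 91.8% of columns, since both genes are read from the same stretch of DNA.

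**Figure D1:**
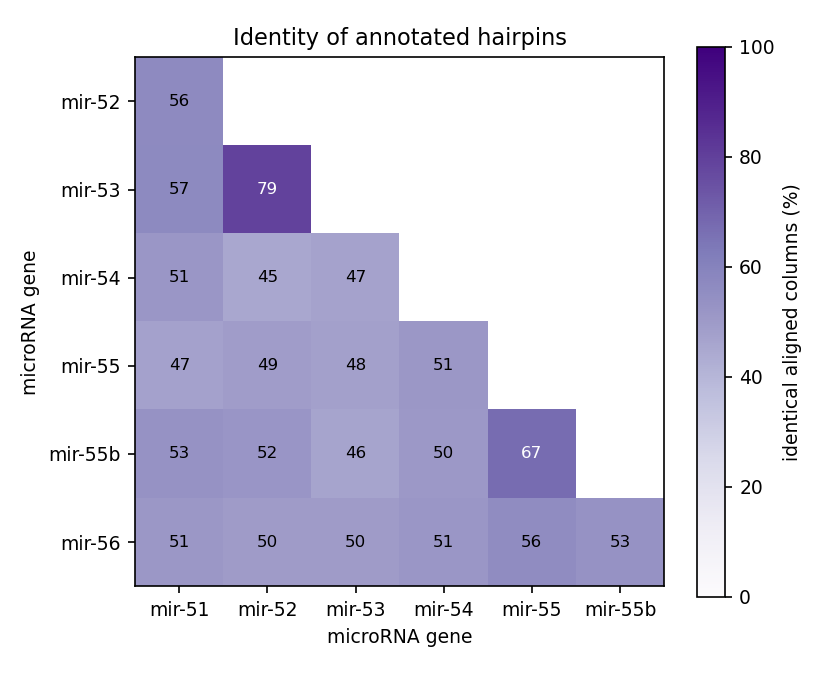
Percent of identical aligned columns between the annotated hairpins of each pair of mir-51 family genes, from global alignment on each gene's own strand. The mir-52 and mir-53 pair stands at 79.0%, and the mir-55 and mir-55b pair at 67.0%.

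To show where TRA-4 signal lay against these hairpins, 261 bases centred on the summit of the region nearest to each locus are printed below from the RefSeq genome of WBcel235, on the strand of the microRNA gene. Capitals mark the DNA form of the family seed. In the mir-51 window they also mark a match to the B box motif GTTCNANNC.
mir-52, chrIV:14033952-14034212, plus strand: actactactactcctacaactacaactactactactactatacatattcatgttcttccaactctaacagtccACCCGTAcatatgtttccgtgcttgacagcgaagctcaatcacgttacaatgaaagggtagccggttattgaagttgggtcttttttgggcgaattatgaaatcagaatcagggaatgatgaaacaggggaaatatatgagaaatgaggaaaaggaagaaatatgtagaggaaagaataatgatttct
mir-51, chrIV:11026088-11026348, minus strand: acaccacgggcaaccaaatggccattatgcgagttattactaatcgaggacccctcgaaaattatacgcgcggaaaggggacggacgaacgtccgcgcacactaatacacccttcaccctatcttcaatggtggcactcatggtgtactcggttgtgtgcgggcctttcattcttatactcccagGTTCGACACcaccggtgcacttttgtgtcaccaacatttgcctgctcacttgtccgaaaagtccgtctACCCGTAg
mir-54, chrX:13144982-13145242, minus strand: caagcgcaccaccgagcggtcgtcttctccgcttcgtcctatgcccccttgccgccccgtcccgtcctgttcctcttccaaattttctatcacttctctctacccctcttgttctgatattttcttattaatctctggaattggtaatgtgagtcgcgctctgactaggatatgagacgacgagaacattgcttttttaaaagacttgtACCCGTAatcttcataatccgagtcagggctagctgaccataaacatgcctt
mir-53, chrIV:11027552-11027812, minus strand: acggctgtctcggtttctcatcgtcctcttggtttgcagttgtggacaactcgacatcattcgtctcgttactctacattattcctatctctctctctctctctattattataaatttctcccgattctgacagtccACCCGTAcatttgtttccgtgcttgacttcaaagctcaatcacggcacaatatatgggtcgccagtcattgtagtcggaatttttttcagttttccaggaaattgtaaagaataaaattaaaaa

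The 4 deposited lists of regions used here each gave a summit and a signal value computed by the authors. The final list, filtered on the irreproducible discovery rate (IDR), which scores whether a region ranks alike in replicates, held 394 entries. The relaxed lists, which hold background as well as enriched regions, had 9660 regions for the pooled replicates, 19062 for replicate 1 and 13957 for replicate 2. The signal scale differs between lists, so signals are compared within a list only, as ranks (1 is the strongest) or as a percentage of the strongest region of that list. The lists carry no read counts, and the depth of the libraries is unknown. The control alignment named as a source of the relaxed lists is not analysed here.

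All 7 family genes had an IDR summit within 2 kb of their start. The same held for 6 of 254 microRNA genes outside the family (2.36%) and for 1030 of all 46890 annotated genes (2.20%). Within 500 bp the family count stayed at 7, against 4 of 254 outside the family (1.57%) and 601 of all genes (1.28%). The family was chosen for these regions, so nothing is read from the contrast with the background. The 7 genes shared 5 IDR entries, because mir-54, mir-55, mir-55b and mir-56 lay by the same summit and mir-52 lay by 2.

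The mir-52 region was the strongest in every list. Its signal was 610.9 in the pooled list, 264.9 in replicate 1 and 342.2 in replicate 2, and its rank was 1 in each. The next region of the list reached 91.5%, 89.4% and 96.0% of the mir-52 signal, in the same order. The lead of mir-52 over the next region of each list was small next to its own signal, and mir-52 led in both replicates. Whether the next region was the same one in each list was not examined.

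The mir-52 summit lay inside the hairpin. In the pooled list it stood at 14034082, 74 bp downstream of the gene's 5′ end and within the mature product of the 3′ arm. The replicate summits, at 14034055 and 14034064, lay between the arms of the hairpin. The 3 positions spanned 27 bp. The summit also lay in the exon of Y37A1B.335, a noncoding RNA gene of 14033942 to 14034090 on the opposite strand, whose start was 8 bp away. Immunoprecipitated DNA carries no strand, so the position does not assign the signal to either gene. The nearest protein-coding start, that of Y37A1B.7, was 9698 bp away, and the nearest tRNA start 20206 bp away.

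The mir-52 locus carried a second summit. The pooled list gave both summits the same interval, while in each replicate their intervals differed but overlapped. The second summit lay beyond the 3′ end of the hairpin, 204 bp from the first in the pooled list, 204 bp in replicate 1 and 203 bp in replicate 2. Its signal was 110.5, 80.4 and 106.4, which was 18.1%, 30.3% and 31.1% of the first summit. Its ranks were 305, 70 and 119. The spacing was therefore nearly the same in all 3 lists, while the share of signal at the second summit was lower in the pooled list than in either replicate.

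The mir-51 region ranked 5 in the pooled list (signal 439.5), 10 in replicate 1 (149.6) and 5 in replicate 2 (291.6). As a share of the strongest region this was 71.9%, 56.5% and 85.2%. It was second among the family loci in all 3 lists, with a wide gap between the replicates. The pooled region was 196 bp long, shorter than the median of 480 bp in that list.

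The mir-51 summit lay outside the hairpin, upstream of it. It stood at 11026218 in the pooled list, 106 bp upstream of the start, and at 81 and 87 bp upstream in replicates 1 and 2. All 3 positions fell in the exon of F36H1.17, a noncoding RNA gene of 11026131 to 11026219 on the same strand as mir-51. The pooled summit was 1 bp from the start of F36H1.17. The pooled region, 11026142 to 11026337, did not overlap the mir-51 hairpin, while the regions of both replicates did. The position does not assign the signal to mir-51 or to F36H1.17, and the region is named here after the nearest family gene. The nearest protein-coding start was that of hrg-5, a heme-responsive gene, at 3210 bp.

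The region of the mir-54 to mir-56 cluster ranked 119 in the pooled list (signal 162.6), 203 in replicate 1 (54.7) and 83 in replicate 2 (118.8). This was 26.6%, 20.6% and 34.7% of the strongest region. The pooled summit at 13145112 lay 18 bp upstream of the start of mir-54, the first gene of the cluster in the direction of its minus-strand members. It was 188 bp upstream of mir-55, 325 bp upstream of mir-56 and 282 bp downstream of the start of the antisense gene mir-55b. The replicate 2 summit was 4 bp from the pooled one. The replicate 1 summit was 79 bp from it and lay in the 3′ arm of the mir-54 hairpin, so the placement upstream of mir-54 held in the pooled list and in replicate 2. The cluster lies in an intron of F09A5.3, a protein-coding gene on the plus strand whose start was 3511 bp away. With 1 summit for 4 genes, the signal cannot be divided among them.

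The mir-53 region was the weakest of the 4. It ranked 361 in the pooled list (signal 104.5), 632 in replicate 1 (38.6) and 387 in replicate 2 (65.6), at 17.1%, 14.6% and 19.2% of the strongest region. The deposited q-values were 0.0180 in the pooled list, 0.0784 in replicate 1 and 0.0116 in replicate 2, so the region was under 0.05 in the pooled list and replicate 2 and above it in replicate 1. At the other 3 loci the strongest region was at the smallest q-value of its list, which 204 pooled regions shared. The pooled mir-53 summit lay 9 bp inside the hairpin, and the replicate summits lay 83 and 36 bp upstream of it. The mir-51 summit was also within 2 kb of mir-53, at 1473 bp.

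**Figure D2:**
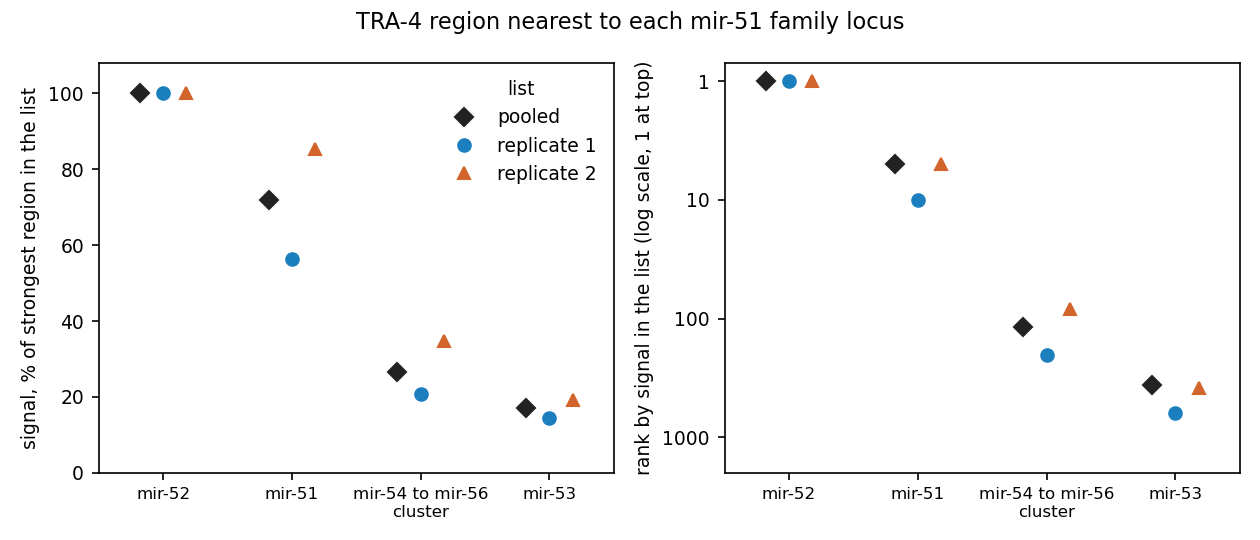
Signal of the region nearest to each family locus, as a percentage of the strongest region of its list (left), and its rank in that list on a log scale (right), for the pooled list and both replicates. The loci stand in the order mir-52, mir-51, the mir-54 to mir-56 cluster and mir-53 in all 3 lists, with mir-51 between 56.5% and 85.2% and mir-53 between 14.6% and 19.2%.

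The order of the 4 loci was the same in the pooled list and in both replicates. The mir-52 region was at 100% in each list by definition, and the pooled list draws on the same 2 replicates. The family was chosen on these values, so nothing is read from the lead of mir-52 and mir-51. The mir-54 to mir-56 cluster stood above mir-53, at 20.6% against 14.6% in replicate 1 and 34.7% against 19.2% in replicate 2. With 2 replicates no test of the order was made. The 2 genes with the most similar mature products and hairpins, mir-52 and mir-53, stood at opposite ends of this order. The place of mir-52 was part of the choice of the family, so nothing is read from this either.

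Weaker regions flanked the loci. In the relaxed lists, 8 pooled regions, 13 of replicate 1 and 10 of replicate 2 had a summit within 2 kb of a family start. All 8 pooled regions had a replicate summit within 100 bp in both replicates, including 3 that were not in the IDR set. The pooled list draws on the same 2 replicates, and the share of all 9660 pooled regions matched in this way was not computed. Nothing is therefore read from this match. A relaxed pooled region lay within 2 kb of 43.3% of the microRNA genes outside the family and of 25.9% of all annotated genes, so a region in that list is common.

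Of the 3 pooled regions outside the IDR set, 2 lay upstream of mir-52. The first ranked 750 (signal 83.0), with its summit 1029 bp upstream of mir-52 and 18 bp inside the noncoding RNA gene Y37A1B.332. The second ranked 1246 (signal 72.7), at 1289 bp upstream. The third lay between mir-51 and mir-53, ranked 7674 (signal 46.9) and had its summit 626 bp downstream of the mir-53 start. In replicate 1 the matching region ranked 722 and in replicate 2 it ranked 12182. It was the region of this group whose rank differed most between replicates.

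The remaining replicate regions within 2 kb had no pooled summit within 100 bp. Near the cluster on chromosome X these were replicate 1 regions of rank 8029, 8958 and 16908 and a replicate 2 region of rank 1722, all in F09A5.3. Near mir-51 they were a replicate 1 region of rank 9373 at 282 bp upstream and regions in alh-3, an aldehyde dehydrogenase gene, of rank 18990 in replicate 1 and 13906 in replicate 2. The regions in alh-3 were the farthest inside the 2 kb window in those lists, at 1438 and 1494 bp from mir-51. The nearest summits beyond the window were 2205 bp from mir-52 in replicate 1 (rank 18122) and 2221 bp from mir-54 in replicate 2 (rank 13282). In the IDR set the farthest summit inside was at 278 bp and the nearest outside at 23551 bp.

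**Figure D3:**
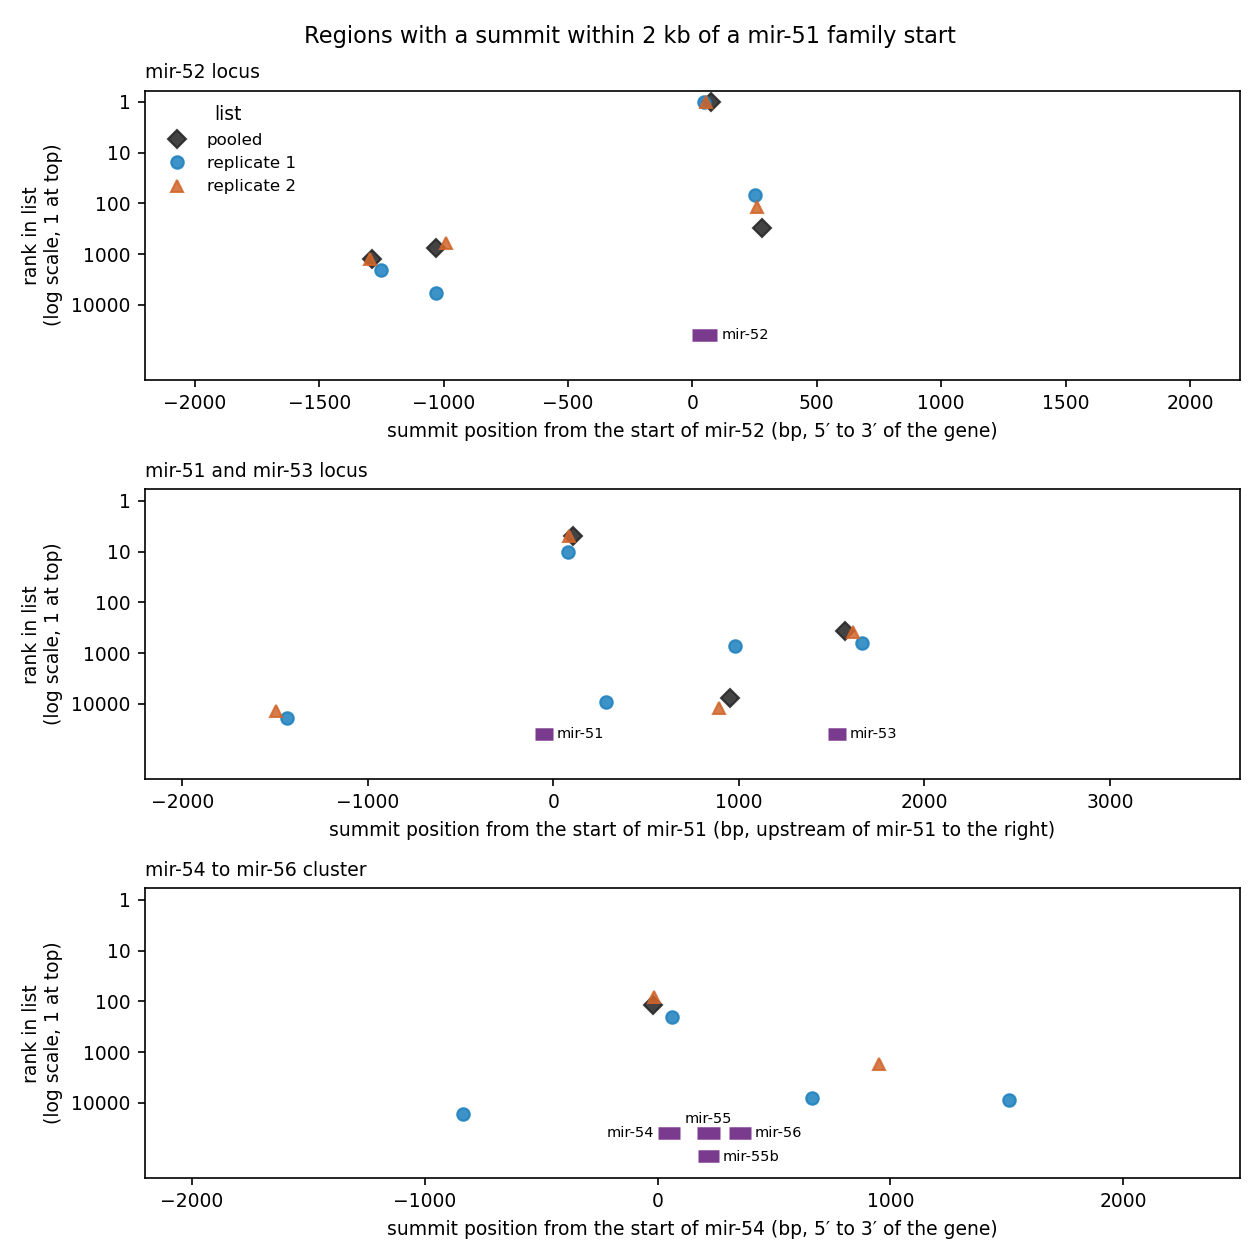
Rank of every region with a summit within 2 kb of a family start (log scale, 1 at the top) against the summit's distance from the start of mir-52, mir-51 or mir-54, for the pooled list and both replicates. Bars mark the microRNA genes. Each locus has 1 group of highly ranked summits at or just beside a hairpin, and the mir-52 locus has a second group about 204 bp downstream.

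Among the 13 microRNA genes with an IDR summit within 2 kb, the 6 outside the family were mir-72, mir-58a, mir-73, mir-74, mir-1819 and mir-2212. The first 4 had it within 500 bp. The mir-72 summit ranked 287, that of mir-58a 365, and that shared by mir-73 and mir-74 390. The mir-1819 and mir-2212 genes shared a summit of rank 124 at 1834 and 1960 bp. The best rank outside the family was thus 124 in the pooled list, 93 in replicate 1 and 148 in replicate 2. The mir-52 region ranked 1 in each, but it was part of the choice of the family, so nothing is read from this contrast. The 93 was that of mir-58a, whose summit lay 261 bp upstream of the start there and 75 bp upstream in the pooled list.

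By likeness of rank in the pooled list and both replicates (the mean absolute difference of log10 rank, over 102 outside genes with a region in all 3 lists), the genes nearest to mir-51 were mir-1819 and mir-2212, at 1.35, and mir-58a, at 1.49. The same 3 genes were nearest to mir-52, at 2.15 for mir-1819 and mir-2212 and 2.28 for mir-58a. A difference of 1 is a factor of 10 in rank, so averaged over the 3 lists no outside microRNA gene came within that factor of either gene. The strong regions of mir-51 and mir-52 led to the choice of the family, so this distance follows from the choice. With mir-52 at rank 1 in all 3 lists, its measure orders outside genes by their own ranks only. The other loci of the family had outside genes at similar ranks. The chromosome X cluster, at 119, 203 and 83 in the pooled list, replicate 1 and replicate 2, stood beside mir-1819 and mir-2212, at 124, 157 and 148. The mir-53 region, at 361, 632 and 387, stood beside that of mir-73 and mir-74, at 390, 653 and 503.

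**Figure D4:**
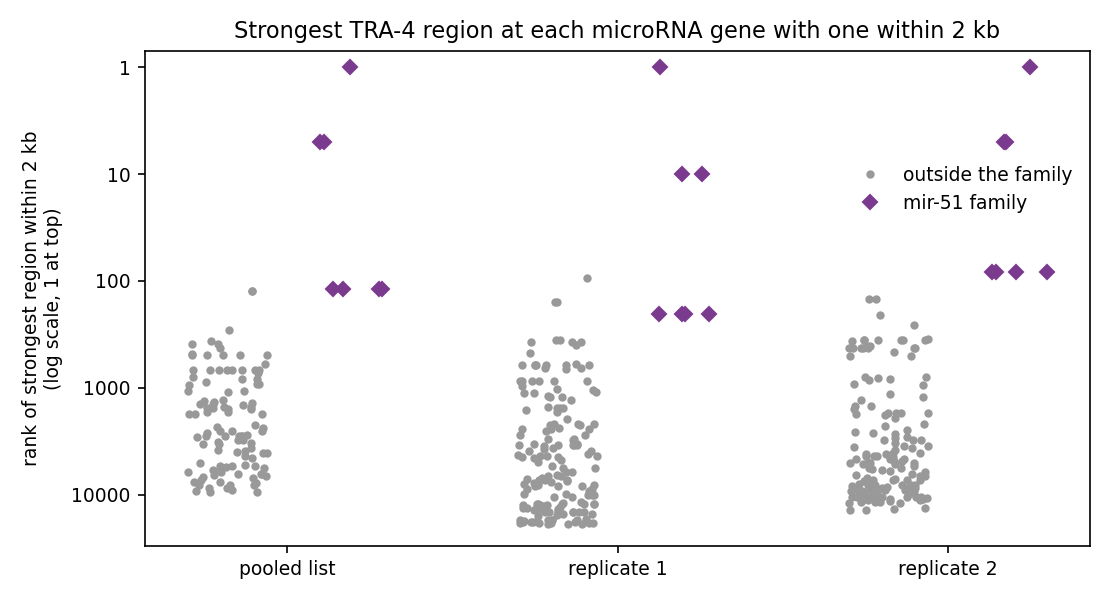
Rank of the strongest region with a summit within 2 kb of each microRNA gene that had one (log scale, 1 at the top), in the pooled list and each replicate, for family genes and for the 110, 166 and 151 genes outside the family with such a region. Horizontal scatter is for display, and mir-53 appears at the rank of the mir-51 region, which lies within 2 kb of both. Family genes stand at 1 to 119 in the pooled list, 1 to 203 in replicate 1 and 1 to 83 in replicate 2.

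Over 6 other microRNA families of C. elegans, 1 of 30 genes (3.33%) had an IDR summit within 2 kb, near the 2.36% of all microRNA genes outside the mir-51 family. The mir-35 family, which acts in early embryos, had 0 of 8, the let-7 family 0 of 7, the mir-64 family 0 of 5, the mir-2 family 0 of 3 and the lin-4 family 0 of 2. The bantam family had 1 of 5, mir-58a. In the relaxed pooled list, all 8 mir-35 family genes had a region within 2 kb, and 7 of them shared one of rank 682. In that list the counts were 2 of 7 for let-7, 4 of 5 for bantam, 4 of 5 for mir-64, 3 of 3 for mir-2 and 0 of 2 for lin-4. Together this was 21 of 30 genes (70%), against 43.3% of microRNA genes outside the mir-51 family and 25.9% of all genes, and neighbouring genes can share a region.

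Of 14 genes of the microRNA pathway, ain-1, which encodes a GW182-like partner of the microRNA Argonautes, had an IDR summit within 2 kb, against 2.18% of protein-coding genes. Its summit ranked 320, at 1007 bp upstream. The relaxed pooled list had a region near 10 of the 14, against 30.5% of protein-coding genes. These 10 included drsh-1, which encodes the Drosha nuclease, at rank 1614, and the Argonaute genes alg-1 and alg-2, at ranks 4997 and 2868. The target gene cdh-3 had no region within 2 kb in the IDR set or the pooled list, and its best ranks in the replicates were 8202 and 12129.

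The sequences at the family summits had little in common. Within 150 bp of the summits of the 4 loci, the longest sequence found in all 4 windows on either strand was ACCCGTA, the family seed itself. No sequence of 8 bases was shared by all 4. Of 6 bases, GAATGA was shared besides parts of the seed, and 14.2% of IDR windows and 17.3% of pooled windows held it. The members share this seed by definition, so each window that reaches the mature microRNA must hold it. Its presence is therefore not a separate feature of the summits. The seed heptamer occurred in 6 of the 394 IDR windows (1.52%) and in 94 of 9660 pooled windows (0.973%). Of those 6 IDR windows, 4 were the family's own, and it occurred in 2 of the other 389 (0.514%). The window of the second mir-52 summit did not hold it. It lay in the annotated microRNA at each locus, with its centre 10 bp from the pooled summit at mir-53, 54 bp at mir-52, 82 bp at mir-54 and 126 bp at mir-51.

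A set of 7 short motifs was searched on both strands within 150 bp of the 5 family IDR summits. The B box GTTCNANNC, part of the internal promoter of tRNA genes, was found at mir-51 only, in 1 of 5 windows, against 41.6% of IDR windows and 12.5% of pooled windows. At mir-51 the match was GTTCGACAC at 11026155 to 11026163, inside F36H1.17 and on its strand, while the nearest annotated tRNA start was 205347 bp away. The A box TGGCNNAGT was found in 0 of 5 family windows, against 10.9% of IDR and 4.40% of pooled windows. The GAGAG motif occurred at mir-53 and at the chromosome X cluster, against 229 of 394 IDR windows and 39.7% of pooled windows. TATAAA occurred at mir-53, against 25.1% and 24.4%. CACGTG (5.08% and 6.13%) and GATAAG (7.36% and 9.65%) occurred at none, and TTTTT occurred in 4 of 5, against 92.9% and 92.2%. None of these motifs contains another, and a match describes the sequence and not a bound site.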

How the data were processed

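Peak lists of TRA-4 ChIP-seq in early embryos were analysed for 2 biological replicates, their pool and the IDR set. Per the deposited descriptions, the relaxed lists derive from each alignment with a control alignment, and the IDR set derives from the replicate and pooled lists. No source used here names the caller, the aligner or the IDR cutoff. The deposited signal value and the deposited −log10 q-value of each region are the authors' own. No source used here says how the signal was computed, and the depth is unknown. Only ce11 lists were used. Summits are 1-based.

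Gene starts came from Ensembl release 115 and sequence from the RefSeq genome of WBcel235. Regions were assigned by summit within 2 kb of a start, on either side, and ranked by signal. Python 3.11.15, pandas 2.3.3, numpy 2.4.6, Biopython 1.88 (global alignment, match 1, mismatch -1, gap opening -2, gap extension -0.5) and matplotlib 3.10.9 were used. The assignment recovered 100 of 100 simulated summits.

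The members and lists were chosen with earlier results of these data known. Named genes were the 7 members, genes holding or nearest to their summits, the 3 outside microRNA genes nearest in rank to mir-51 and mir-52, outside microRNA genes with an IDR summit, and list members with one. Other list members were named after their values were seen. No annotated gene matched mir-1834 or ntl-1, which were dropped from their lists. Alternatives were other windows, thresholds, ranking by q, region midpoints, overlap rules and each replicate alone.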

Additional observations from a re-analysis of the deposited data

How the results depend on the processing

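The count of 7 family genes with an IDR summit held at 500 bp, at 1 kb, in the stronger 197 entries of the IDR set, by any part of the region, and with the 394 strongest regions of either replicate. Of 3 settings added after seeing the data, 500 bp in replicate 2 alone gave 7, while 500 bp in replicate 1 alone and 500 bp in the stronger 197 entries gave 6, each losing mir-53. The count of 6 microRNA genes outside the family became 2 in the stronger 197 entries and 8 to 12 with either replicate alone. It was 12 without replicate 1. Counts of family genes in the pooled list and of the 8 matched regions did not change under their alternatives. Ranked by q-value, mir-51 and mir-52 tied at a mean rank of 102.5 with the other regions at the smallest q. With summits limited to 500 bp, the pooled rank at mir-53 was 361 in place of 5. Of 49 settings for ranks and summit positions of single genes, 18 moved the value by more than the SD between replicates. These settings are not independent, because mir-54, mir-55, mir-55b and mir-56 repeat 1 shared region. For each of those genes, only the summit position in replicate 1 alone moved. The mir-53 ranks within 2 kb are those of the mir-51 region. Counts over the genes therefore understate how often values of separate regions moved. The causes were not tested. No paired analysis was possible because the series has 1 group.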

Other observations

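The mir-35 family cluster, whose products are abundant in early embryos, had its strongest region at rank 682 in the pooled list (signal 85.7), 611 in replicate 1 (39.0) and 423 in replicate 2 (63.5). These ranks lay below those of all 4 mir-51 family loci in the pooled list and in replicate 2. In replicate 1 the region stood above that of mir-53, at 632. The mir-51 family was chosen for its regions at mir-52 and mir-51, so nothing is read from this contrast between the families. Of the microRNA genes outside the family with an IDR summit, mir-72 differed most in rank between replicates, at 1313 in replicate 1 and 256 in replicate 2. The mir-58a gene ranked 93 and 210, but its summits differed, at 261 bp upstream of the start in replicate 1 and 101 bp downstream in replicate 2.

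The GC content within 150 bp of the summit was 51.5% at mir-51, 46.8% at the chromosome X cluster, 40.2% at mir-52 and 39.5% at mir-53. The median over the 394 IDR windows was 42.9%, with quartiles of 38.0% and 46.8%. The strongest locus of the family thus lay below the IDR median and the second strongest above the upper quartile.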
